A study of Mus musculus with 120 samples.

Results

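The genes described here encode the proteins of the small subunit of the cytosolic ribosome. They were taken by symbol alone, as every row of the deposited count table named Rps plus a number (with an a or x where the symbol has one), together with Rpsa and Rps3a1. That rule gave 31 genes among 23481 symbols, from Rpsa and Rps2 to Rps29. The rule itself uses no measured value. Pseudogene symbols, the Rps27l paralog and 2 small-subunit components with other names, Fau and Gnb2l1 (Rack1), lie outside the rule.

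The small subunit binds the mRNA and reads codons against tRNA anticodons, in a head, a body and a platform built of ribosomal RNA and proteins. Mammalian ribosomal protein mRNAs carry a terminal oligopyrimidine tract at the 5′ end, through which growth and amino acid signals control their translation and stability. Halofuginone occupies the proline site of the glutamyl-prolyl-tRNA synthetase Eprs, so that uncharged proline tRNA accumulates as in amino acid starvation. Added proline competes with the drug for the enzyme.

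All 120 libraries came from macrophages grown from the bone marrow of wild-type male C57BL/6 mice 12 weeks old. The cells had been transduced with a pooled transcription factor reporter virus and were replated on day 9. Controls numbered 12 at each of the times labelled T0, T1 and T4. Treated groups held 2 libraries for each of 7 halofuginone doses (2.4, 9.7, 39, 156, 625, 2500 and 10000 nM), with or without 2 mM proline, at each time. The series describes small molecules given 30 minutes before lipopolysaccharide (LPS, a bacterial cell wall component that activates macrophages), and a 4 hour dose curve with and without LPS. The labels give no unit for time, no LPS status for any library, no exposure before T0 and no proline status for controls, so the course in controls is described by time alone. Nothing in the labels says that libraries of a group came from separate cultures, so p-values measure the spread between libraries, which may be technical.

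Library totals ran from 20000 to 114061 counts, and the 31 genes together took 44 to 1361 counts per library (median 639.5). The ribosomal precursor RNA Rn45s held 27 to 71.1% of counts, and the family's share is therefore given of the counts outside Rn45s. All 31 genes passed the filter on low counts in every fit, so none was lost to it. Of the 13 macrophage markers in the table, none was at 0 in T0 controls, where their summed level was 4120 to 5173 CPM. Mertk was at 0 in T1 controls. With the high doses defined below, Lyz2 was at 0 at T1 without proline and at T0 and T4 with it. C1qa was at 0 at T4 without proline. In T0 controls 7 of 7 erythroid and 4 of 4 mast cell markers were at 0. Of the 8 neutrophil markers 2 were at 0 there, and their sum was 215 to 506 CPM. B cell, T and NK cell, dendritic cell and fibroblast markers were not all at 0, with sums of up to 19.8, 44.0, 58.0 and 19.3 CPM. CPM, the count scaled to library size, is given here after TMM scaling over all 120 libraries. Fitted changes used scaling factors set within each fit, so they and ratios of mean CPM are on different scales.

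The 31 genes lie on 13 chromosomes in the GENCODE M21 annotation of GRCm38, with coding lengths from 168 bases (Rps29) to 906 bases (Rps2). Rps27a, whose product is ubiquitin fused to a small-subunit protein, lies at chr11:29545846-29548109 on the minus strand. Rps25, needed for some internal ribosome entry, lies at chr9:44407139-44410427 on the plus strand, and Rps4x is X-linked, at chrX:102184941-102189394 on the minus strand. The annotation names 108 pseudogenes after 21 of the 31 genes, and short 3′ reads of such copies could be split between rows or lost, which makes the absolute level of each gene uncertain. Levels are therefore compared for the same gene between groups and not between genes.

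In controls, the small-subunit genes held 3.52 ± 0.37% of counts outside Rn45s at T0 (SD, n = 12), 2.98 ± 0.33% at T1 and 2.23 ± 0.28% at T4. At T1, 3 of 31 genes had fallen (edgeR quasi-likelihood test, Benjamini-Hochberg adjusted p under 0.05), while 5.23% of the 708 genes tested were lower. At T4, 25 of 31 had fallen, with a family median of -0.46 on the log2 scale against -0.07 for all genes tested, of which 35.9% were lower. All 31 values were below 0. Without the filter on low counts 4 genes were lower, at a family median of -0.22 beside -0.24 for all genes, and with median-of-ratios scaling 18 were lower, at -0.34 beside 0.05.

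Rps3 and Rps28 were among the genes that fell the most at T4. Rps3, which lines the mRNA entry channel, went from 355 to 674 CPM (median 574) at T0 to 198 to 426 (median 294) at T4. All 12 T4 libraries lay below the T0 mean, although the ranges overlapped. Its change was -0.85 (SE 0.15, adjusted p = 1.61e-06, edgeR). Rps28, near the mRNA exit, ran from 256 to 655 CPM at T0 and from 110 to 624 at T4, so that its groups overlapped across most of their range. Its change was -0.80 (SE 0.17, adjusted p = 4.42e-05, edgeR). Rps3 and Rps28 passed the threshold under every alternative tried for this comparison.

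The smallest T4 values were those of Rps9 (-0.19, adjusted p = 0.208), Rps20 (-0.23, adjusted p = 0.137) and Rps24 (-0.26, adjusted p = 0.0244) in the edgeR fit. Among the other genes followed throughout, Rpsa (-0.62), Rps29 (-0.41), Rps6 (-0.37), Rps14 (-0.34) and Rps27a (-0.34) were called, and none of these 5 calls held without the filter on low counts. With median-of-ratios scaling or DESeq2, those of Rps6, Rps14 and Rps27a were lost. To ask whether a gene moved apart from its family, the same test was run with each library scaled to its 31-gene sum. On that scale 2 members fell beyond the family in edgeR, among them Rps3 (-0.37, SE 0.13, adjusted p = 0.016), and no member rose, while 11.3% of all genes were lower and 49.6% higher. The Rps3 call was lost without the filter (adjusted p = 0.175).

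**Figure D1:**
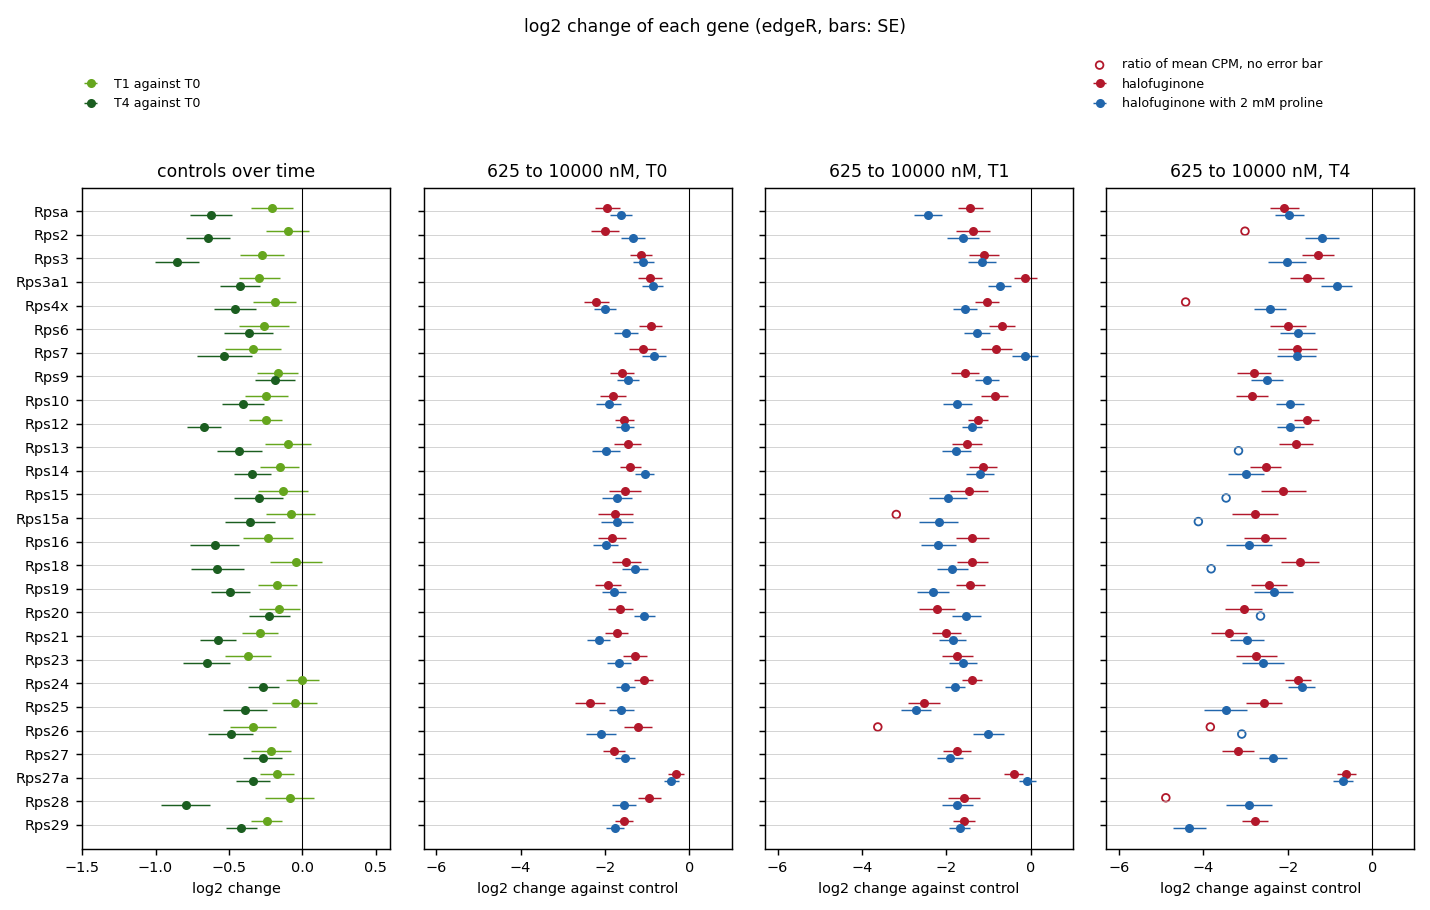
log2 change of 27 of the 31 genes (rows) in controls over time (left panel, 12 libraries per time) and with 625 to 10000 nM halofuginone against control at T0, T1 and T4 (6 treated and 12 control libraries; red without and blue with 2 mM proline). Filled points are edgeR estimates with SE bars, and open circles are ratios of mean CPM for genes with no count at a dose. The ratios use TMM over all 120 libraries and the estimates TMM within each fit, so they are not on one scale. Rps27a lies closest to 0 at T0 and T4 in both arms.

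The doses of 625, 2500 and 10000 nM were averaged as the high doses. With them the family's share of counts outside Rn45s fell in all 3 time groups, to 1.1 to 1.5% at T0 (median 1.30), 0.992 to 1.71% at T1 (median 1.11) and 0.431 to 0.603% at T4 (median 0.50). No treated library reached the lowest control, which held 2.88% at T0, 2.26% at T1 and 1.80% at T4. With proline the same doses gave 0.939 to 1.6%, 0.844 to 1.38% and 0.322 to 0.759%. In bulk RNA, fewer cells of a type and less RNA per cell cannot be told apart. The summed macrophage markers were also lower with the high doses, at 2313 to 3212 CPM at T0 and 930 to 2179 at T4, where controls had 3075 to 4551. Neutrophil markers (8 in the table) summed to 0 to 169 CPM at T0, where controls had 215 to 506, with 4 of the 8 at 0. Rn45s rose by 0.89, 1.2 and 1.55 (log2) at T0, T1 and T4. The part of these shifts in the family's change was not tested.

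**Figure D2:**
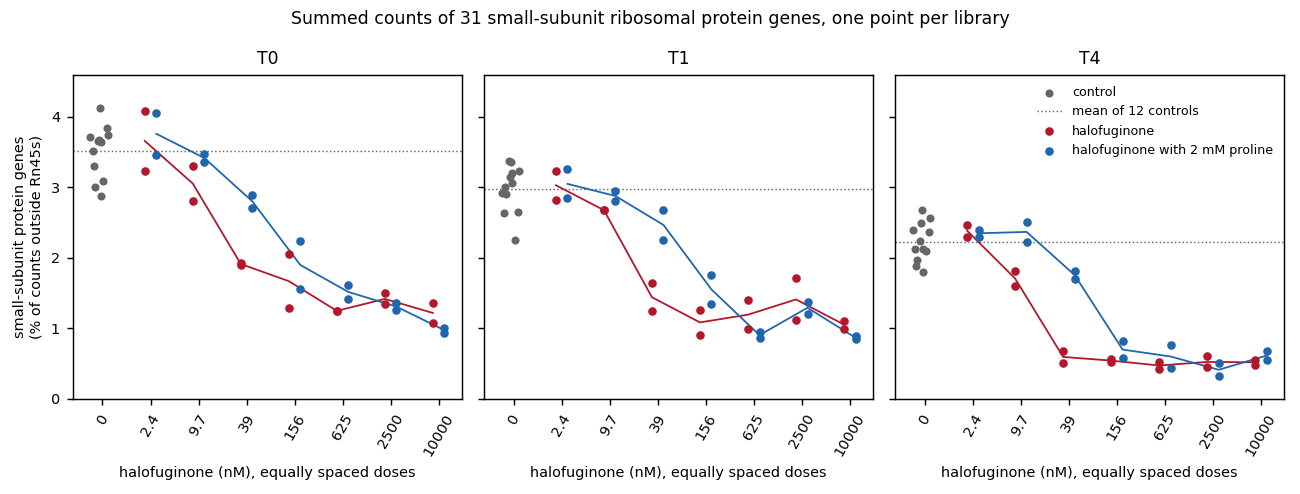
Share of counts outside Rn45s held by the 31 genes (y axis, %) against halofuginone dose (x axis, nM, equally spaced) at T0, T1 and T4. Each point is a library, lines join the means of 2 libraries per dose, and the dotted line is the mean of 12 controls; at T4 the 2 libraries at 39 nM lie at 0.514 and 0.678% without proline and at 1.70 and 1.81% with it.

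At T0, 30 of 31 genes fell with the high doses (median -1.54, all genes -0.21), against 24.3% of the 1130 genes tested. At T1, 27 fell (median -1.44, all genes -0.21), against 23.3% of 1066. At T4 all 31 fell (median -2.57, all genes -0.23), against 35.4% of 1315. With proline present, 30, 29 and 31 fell (medians -1.55, -1.74 and -2.59), while 25%, 23.5% and 33.5% of genes tested were lower. The same 12 controls serve both arms at a time. No small-subunit gene rose in any of these 6 comparisons, in which 14.7%, 11.3% and 19.1% of genes tested were higher without and 18.6%, 15.9% and 18.5% with proline at T0, T1 and T4. Median-of-ratios scaling moved the median of all genes by more than 0.1, to -0.11 at T0, -0.32 at T1 and -0.41 at T4 without proline, and left 30, 29 and 31 members lower.

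The members were split by their place in the subunit. At T0, 13 of 14 head genes (median -1.54) and 17 of 17 body and platform genes (median -1.49) were lower. At T4, all 14 head genes (median -2.56) and all 17 others (median -2.75) were. The difference between the lists was not tested. Of the large-subunit protein genes, 34 of 46 were lower at T0 (median -1.08), 35 of 45 lower and 1 higher at T1 (median -1.38), and 42 of 45 lower and 1 higher at T4 (median -2.39). Their counts with proline were 42, 35 and 41 lower and 0, 1 and 1 higher (medians -1.21, -1.24 and -2.20). Translation factors and other mRNAs with a terminal oligopyrimidine tract gave 5 lower and 1 higher of 14 at T0 (median -0.67), 3 lower and 1 higher of 13 at T1 (median -0.98) and 3 lower and 1 higher of 11 at T4 (median -0.46). With proline, 7 of 14, 5 of 13 and 6 of 11 were lower and 2, 1 and 1 higher (medians -0.63, -0.24 and -0.58). Fau and Gnb2l1, both of this list, were lower at each time without proline. Of the other named ones, the elongation factors Eef1a1 (-0.20, -0.25 and -0.37 at T0, T1 and T4) and Eef2 (-0.46, -0.18 and -0.63) and the poly(A)-binding protein gene Pabpc1 (-0.41, -0.26 and -0.46) did not pass, and Tpt1, which encodes a translationally controlled growth protein, rose (0.37, 0.66 and 1.15). No gene of the mitochondrial small subunit (0 of 29) passed the filter on low counts, and 1 of 22 assembly factors did at T0 and T4 and 2 did at T1.

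The steepest falls at T0 were those of Rps25, Rps4x and Rps2. Rps25 had 350 to 1178 CPM in controls (median 612) and 0 to 232 CPM with the high doses (median 117). The ranges did not overlap, and the change was -2.36 (SE 0.35, adjusted p = 7.18e-08, edgeR). Rps4x went from 472 to 1101 CPM (median 732) to 81.6 to 276 CPM (median 121). Again no treated library reached a control, and the change was -2.20 (SE 0.30, adjusted p = 2.88e-09, edgeR). Rps2, next to the mRNA entry channel, fell from 247 to 682 CPM to 38.1 to 149 CPM, without overlap. Its change was -1.99 (SE 0.34, adjusted p = 1.03e-06, edgeR).

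Rps29, Rpsa, Rps14 and Rps3 were followed throughout, and the family medians were -1.54, -1.44 and -2.57 at T0, T1 and T4. Rps29, a zinc-binding protein of the head and an abundant row of the table, had 1116 to 1695 CPM in T0 controls (median 1383) and 299 to 718 with the high doses (median 363). At T4 it had 774 to 1658 CPM in controls (median 1093) and 38.3 to 241 with the drug (median 99.1). Neither pair of ranges overlapped, and the changes were -1.54 (SE 0.22, adjusted p = 1.37e-08) and -2.77 (SE 0.31, adjusted p = 8.21e-12) in edgeR. Rpsa, known also as the laminin receptor, changed by -1.94, -1.44 and -2.09 at T0, T1 and T4. Rps14, the gene tied to the anemia of chromosome 5q loss in people, changed by -1.40, -1.12 and -2.53. Rps3 changed by -1.14, -1.11 and -1.28, less than the family median at each time. The changes of Rpsa, Rps14 and Rps3 all passed the test.

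At T1, Rps26 and Rps15a stood lowest. Rps26, which contacts mRNA upstream of the start codon, had 208 to 447 CPM in T1 controls and 0 to 71.7 with the high doses, from 4 counts over 6 libraries. Rps15a had 182 to 360 CPM and 0 to 80.4, from 5 counts. Each had no count at one of the doses, so the fitted change is uncertain, and log2 ratios of mean CPM were -3.63 and -3.19. Rps25 followed, at 427 to 826 CPM in controls and 0 to 355 with the drug, and fell by 2.54 (log2, SE 0.37, adjusted p = 8.33e-08, edgeR). Rps6 (-0.69, adjusted p = 0.0718), Rps7 (-0.82, adjusted p = 0.0753), Rps3a1 (-0.13, adjusted p = 0.733) and Rps27a (-0.41, adjusted p = 0.149) did not pass at T1 in edgeR. Rps6 is the substrate of S6 kinase, and its level was 321 to 549 CPM in controls and 49.4 to 348 with the drug.

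By T4 counts were few: the 31 genes had from 2 to 77 counts each over the 6 high-dose libraries (median 12), and 6 genes had no count at one or more doses. Rps28 had 2 counts where controls had 275, a ratio to control of 0.0426 (95% counting interval 0.00513 to 0.155), and 4 of 6 libraries were at 0. Rps26 had 4 counts against 240 and Rps4x 5 against 446, with log2 ratios of mean CPM of -3.84 and -4.42. Ratios to control given with an interval divide summed counts by summed TMM-scaled library sizes. Their exact binomial intervals cover counting error only. The log2 ratios of mean CPM compare means of library CPM and carry no interval. Over the family the median log2 ratio of mean CPM was -1.59 at T0, -1.68 at T1 and -2.97 at T4.

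With proline present, Rps27a stayed at the upper end of the order, while some of the lowest members differed at a given time. At T0 the lowest were Rps21 (-2.15) and Rps26 (-2.10), and the highest were Rps27a (-0.43, adjusted p = 0.0541, edgeR), Rps7 (-0.85) and Rps3a1 (-0.87). At T1 the lowest was Rps25 (-2.73), while Rps27a (-0.09, adjusted p = 0.743) and Rps7 (-0.14, adjusted p = 0.75) did not pass. Rps27a had the highest value at each of the 3 times in this arm. At T4 Rps15 had 5 counts, with a log2 ratio of mean CPM of -3.46. Rps15a had 3 counts, a ratio to control of 0.0884 (0.0181 to 0.262). Rps29 had 0 to 117 CPM (median 43.7) and fell by 4.33 (log2, SE 0.39, adjusted p = 1.85e-15, edgeR). The highest at T4 were Rps27a (-0.68, adjusted p = 0.0132), Rps3a1 (-0.84, adjusted p = 0.0454) and Rps2 (-1.19, adjusted p = 0.0106).

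Whether the effect at T4 exceeded that at T0 was tested directly, as the change from control at T4 less that at T0. It was more negative in 13 of 31 genes (family median -1.31, all genes -0.48), against 15.7% of 1640 genes tested. All 31 values lay below 0. Among them were Rps28, Rps26, Rps4x, Rps21, Rps23, Rps27, Rps20, Rps29, Rps9, Rps14 and Rps24. The count was 5 with median-of-ratios scaling (family median -0.97, all genes -0.14), 4 with DESeq2 and 4 without the filter, and it was 8 without replicate 1 of the T0 libraries at 10000 nM. For T1 less T0 only Rps26 was called (3.90% of genes), and in 7 of 12 runs that left out a library that call was lost, as it was with DESeq2.

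Of the 31 genes, Rps27a had the value closest to 0 at T0 and T4, and Rps3a1 at T1. In T0 controls Rps27a had 710 to 1244 CPM (median 962), and with the high doses 551 to 1074 (median 633), so the groups overlapped. At T1 it had 516 to 1119 CPM in controls (median 909) and 224 to 777 with the drug (median 614). At T4 it had 516 to 1045 CPM in controls (median 760) and 270 to 531 with the drug (median 304), where the ranges met at their ends. The changes were -0.32 (SE 0.19, adjusted p = 0.182) at T0, -0.41 (SE 0.22, adjusted p = 0.149) at T1 and -0.62 (SE 0.23, adjusted p = 0.0201) at T4 in edgeR. The log2 ratio of mean CPM at T4, on the scale of all 120 libraries, was -1.12. With a replicate block in edgeR the T4 call was lost (adjusted p = 0.313). Treated libraries carry only numbers 1 and 2, so with this block changes from control within a time rest on controls 1 and 2. The Rps27a share of the family's counts was 4.89 ± 0.82% in T0 controls and 5.41 ± 0.88% in T4 controls (SD, n = 12). With the high doses it was 10.3 ± 2.1% at T0, 9.48 ± 3.95% at T1 and 15.6 ± 4.5% at T4 (SD, n = 6).

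Scaled to the 31-gene sum, Rps27a was higher in all 6 high-dose comparisons in edgeR, by 1.06 (SE 0.19, adjusted p = 3.05e-06), 0.84 (SE 0.21, adjusted p = 0.000803) and 1.54 (SE 0.24, adjusted p = 1.25e-07) at T0, T1 and T4 without proline. With proline it was higher by 1.02 (SE 0.18), 1.34 (SE 0.19) and 1.44 (SE 0.25). On this scale many of the genes tested rise, since the family falls. Of all genes tested, 52.5%, 46.2% and 63.3% were higher at the 3 times without proline, and 63.1%, 59.7% and 64.5% with it. Among the 31 genes, 1, 2 and 1 were higher without proline and 1, 3 and 2 with it. The Rps27a call at T1 without proline was lost with a replicate block (0.65, adjusted p = 0.164), without the 10000 nM dose (0.54, adjusted p = 0.0913) and without replicate 2 at 2500 nM (0.65, adjusted p = 0.0598).

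The components of the subunit outside the rule were set beside the family. Fau, whose product joins a ubiquitin-like protein to a small-subunit protein, fell by 1.26, 1.42 and 2.55 (log2), and the Fau values relative to the sum were 0.13, -0.18 and -0.42, none of them called. Gnb2l1, the scaffold on the subunit head, fell by 1.69 and 1.15 (log2) at T0 and T1 and had 5 counts at T4 against 330 in controls.

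**Figure D3:**
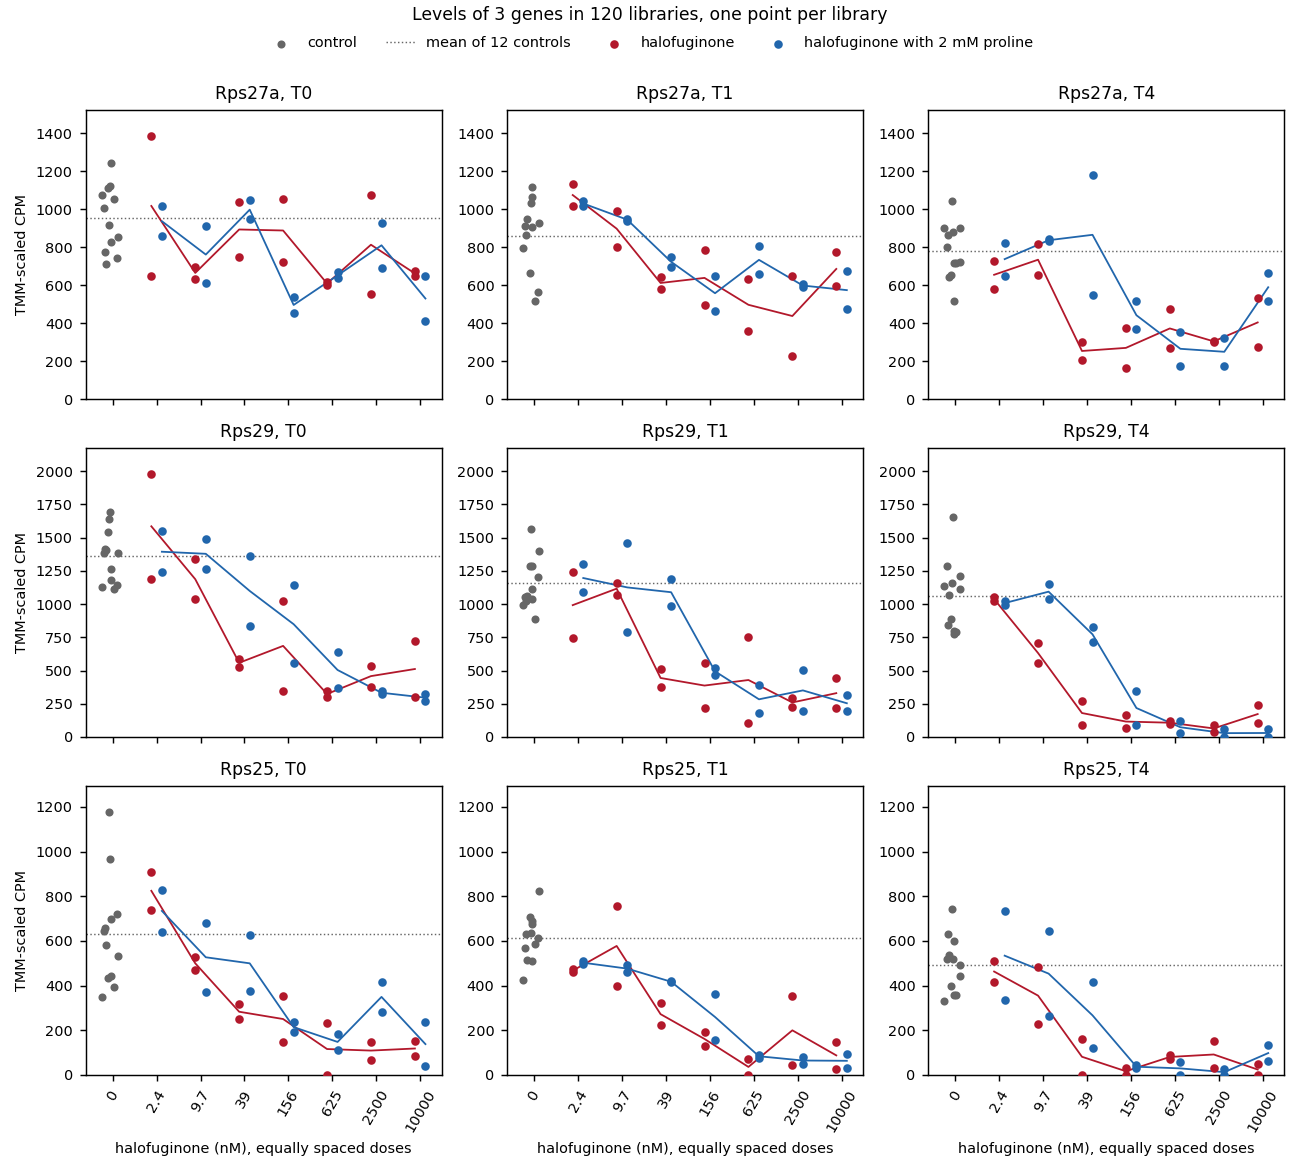
TMM-scaled CPM (y axis, each gene on its own scale) of Rps27a, Rps29 and Rps25 against halofuginone dose (x axis, nM, equally spaced) at T0, T1 and T4. Each point is a library and lines join means of 2 libraries; at T4 Rps29 with 625 to 10000 nM lies at 38.3 to 241 CPM and Rps27a at 270 to 531 CPM.

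Other members parted from the family in fewer comparisons. Rps3a1, a platform protein, was higher than the family at T1 without proline (1.12, SE 0.28, adjusted p = 0.00083, edgeR) and with proline at T1 (0.68, adjusted p = 0.037) and T4 (1.29, adjusted p = 0.0056). Its T0 values with the drug were 84.5 to 930 CPM, with the control range of 439 to 807 inside them. Rps7 was higher at T1 with proline only (1.28, adjusted p = 0.0012). The 2 Rps3a1 calls with proline were lost in 7 (T1) and 4 (T4) of 12 alternatives, and the Rps3a1 call without proline in 2. The Rps7 call was not followed through the alternatives.

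Below the family, Rps25 was called in 4 of the 6 comparisons, and Rps4x, Rps15a, Rps21 and Rps26 in 2 each. Rps25 stood lower by 0.98 (log2, adjusted p = 0.028) at T0 and 1.31 (adjusted p = 0.0051) at T1 without proline, and by 1.33 (adjusted p = 0.0020) at T1 and 1.45 (adjusted p = 0.0496) at T4 with it, all in edgeR. Of 12 alternatives, 5 lost the Rps25 call at T0, 2 at T1 and 7 at T4 with proline, and none lost that at T1 with proline. At T0 it was lost without replicate 1 at 10000 or 2500 nM or replicate 2 at 625 nM, and at T1 without replicate 2 at 10000 nM. At T4 with proline it was lost without replicate 2 at 10000 nM, either replicate at 2500 nM or replicate 1 at 625 nM. The Rps4x call at T0 without proline was lost without the filter, with a replicate block and without the 10000 nM dose. It was also lost without replicate 1 at 10000 nM or replicate 2 at 2500 or 625 nM. The Rps26 calls at T1 and T4 without proline were lost without the filter and with a replicate block. That at T1 was also lost without libraries under 30000 counts, and that at T4 with doses pooled. Rps15, Rps19, Rps27, Rps28, Rps29 and Rpsa were called lower in 1 comparison each. The calls of Rps15a, Rps21, Rps15, Rps19 and Rps27 were not followed through the alternatives. In all, 2, 3 and 6 members were lower without proline and 2, 6 and 6 with it, while 1.15%, 2.91%, 3.65%, 1.86%, 1.97% and 2.89% of genes tested were. Many of these calls rest on few counts: without the filter 1, 2 and 4 members were called in either direction without proline, in place of 3, 5 and 7. Without the T0 replicate 2 at 625 nM the T0 count fell from 3 to 1.

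**Figure D4:**
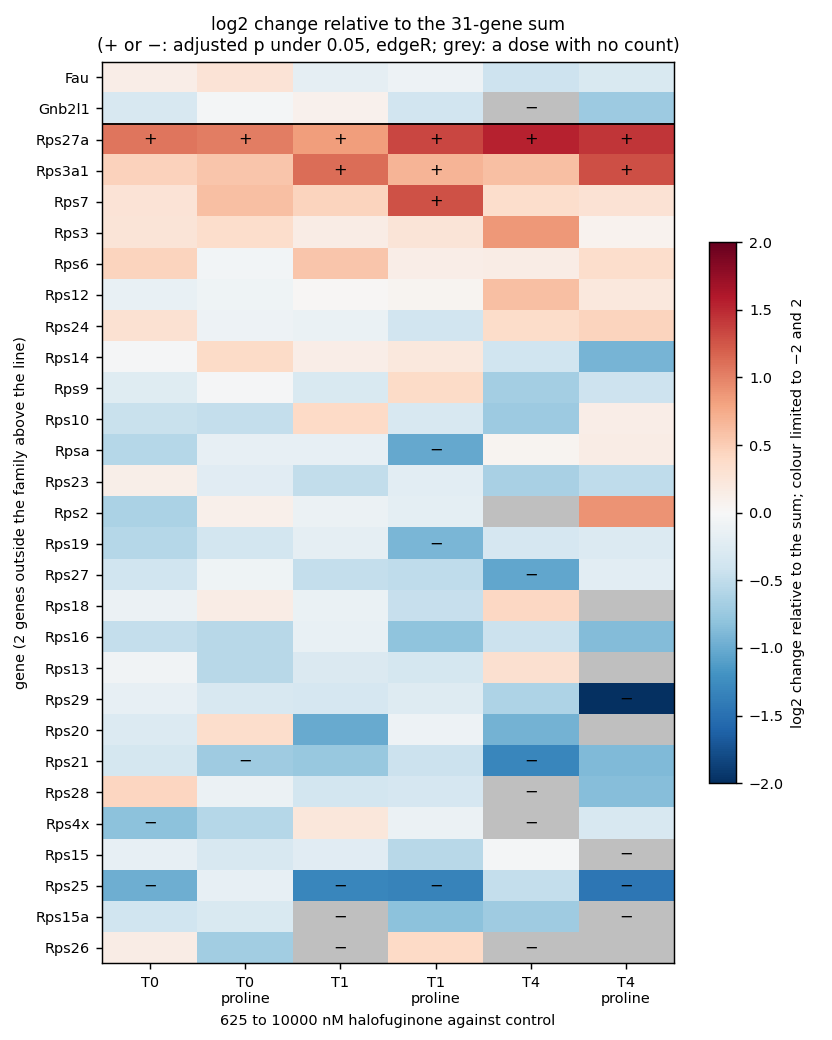
log2 change relative to the 31-gene sum (colour) for 27 small-subunit genes, ordered by their mean over 6 comparisons, and for Fau and Gnb2l1 above the line. Columns are T0, T1 and T4 without and with proline at 625 to 10000 nM; + and − mark adjusted p under 0.05 (edgeR), grey marks a dose with no count, and Rps27a is marked + in all 6 columns.

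The order of the 31 changes was only loosely shared between times, which use different libraries. Across genes, the Pearson correlation without proline was 0.36 between T0 and T1, 0.34 between T0 and T4 and 0.48 between T1 and T4 (n = 31 genes, which are not independent replicates). Without Rps27a these were 0.27, 0.19 and 0.42. With proline they were 0.65, 0.47 and 0.50. Coding length gave Spearman values of -0.12, 0.61 and 0.31 with the change at T0, T1 and T4, and the control level gave -0.07, 0.14 and 0.16. These values describe genes that share the same libraries.

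Promoters of 23 of the 31 genes were found in RefSeq on GRCm38.p6, each from 250 bases before to 50 after an annotated start. Of the 6 genes shown, Rps4x, Rps25 and Rps26 were called below the family in some comparisons, and alternatives lost some of these calls. The other 3 (Rps3a1, Rps7, Rps6) had, among the 23 with an entry, the T1 values closest to 0 without proline. The windows of both kinds are shown so that their starts can be read side by side. Each runs 5′ to 3′ from 40 bases before to 20 after the start, and capitals mark the longest run of C and T within 20 bases of it.
Rps4x: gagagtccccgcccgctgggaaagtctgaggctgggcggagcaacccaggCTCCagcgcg
Rps25: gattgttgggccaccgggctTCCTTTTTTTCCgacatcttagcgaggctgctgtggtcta
Rps26: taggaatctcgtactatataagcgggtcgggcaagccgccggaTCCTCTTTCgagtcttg
Rps3a1: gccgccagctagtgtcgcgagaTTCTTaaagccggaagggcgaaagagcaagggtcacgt
Rps7: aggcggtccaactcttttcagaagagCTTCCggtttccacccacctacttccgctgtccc
Rps6: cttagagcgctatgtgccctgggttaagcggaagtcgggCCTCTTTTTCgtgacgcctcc

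In order, these lie at chrX:102189372-102189431 (minus strand), chr9:44407674-44407733 (plus), chr10:128626487-128626546 (minus), chr3:86142649-86142708 (minus), chr12:28635934-28635993 (minus) and chr4:86857348-86857407 (minus). The marked runs were 4, 12, 9, 5, 5 and 10 bases long, so long and short runs occurred on both sides. A run of 8 or more was found for 10 of 23 members (43.5%) and 18.4% of 27025 genes. The letters CTTCCG, searched on both strands of the whole 300 bases, were in 18 of 23 (78.3%) and in 18.8% of all promoters. CTCGCGAG was in 3 (13%, those of Rps6, Rps19 and Rps28) and in 1.0% of all, and TATAAA in 2 (8.7%) and 15.7%. A match describes letters and not a bound site.

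Whether proline changed the response was examined dose by dose. At 39 nM and T4, the family's share was 0.514 and 0.678% in the 2 libraries without proline and 1.70 and 1.81% in the 2 with it, where controls had 1.80 to 2.68%. At T0 the pairs were 1.9 and 1.93% without and 2.71 and 2.89% with proline, and at T1 1.24 and 1.64% and 2.26 and 2.67%. In each case both libraries with proline lay above both without. At 156 nM and T4 the shares were 0.521 and 0.566% without and 0.578 and 0.821% with proline. At 9.7 nM and T4 they were 1.61 and 1.81% without and 2.23 and 2.51% with it. At 2.4 nM they were 2.30 and 2.47% and 2.30 and 2.40%, within the control range.

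The planned test took 39 and 156 nM together, as the middle doses. Without proline 27, 26 and 30 of 31 genes fell at T0, T1 and T4 (medians -1.0, -1.28 and -2.33), against 16.1%, 16.1% and 26.3% of genes tested. With proline 9, 8 and 15 fell (medians -0.63, -0.55 and -1.17), against 6.28%, 5.91% and 11.2%. These 3 counts depended on single libraries. At T0 the 9 became 1 without replicate 2 at 156 nM, and 2 and 5 without replicates 1 and 2 at 39 nM. At T1 the 8 became 5 and 0 without replicates 1 and 2 at 156 nM, and 3 and 1 without those at 39 nM. At T4 the 15 became 7 without replicate 2 at 156 nM, and 10 to 13 without any other. Compared directly, 0, 1 and 4 genes were higher with proline than without (medians 0.42, 0.67 and 1.06), against 0.354%, 0.563% and 2.81% of genes tested. Those at T4 included Rps19 and Rps26. At T0 edgeR called 0, with 4 at an unadjusted p under 0.05. The T4 count was 0 to 2 whichever of the 8 libraries was left out, and 0 without libraries under 30000 counts. The T0 count of 27 without proline was 14 without replicate 2 at 156 nM and 17 without replicate 1 at 39 nM.

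At 39 nM alone, a dose set apart after the shares had been seen, 10 of 31 genes were higher with proline at T4, with a family median of 1.46 (all genes 0.12) and 7.45% of 1315 genes higher. These included Rps14, Rps19, Rps21, Rps27, Rps27a, Rps29 and Rpsa. Rps29 had 89.1 and 271 CPM without proline and 716 and 829 with it, and was higher by 1.76 (SE 0.53, adjusted p = 0.0198, edgeR). Rps27a had 208 and 298 CPM without and 549 and 1181 with proline, and was higher by 1.46 (SE 0.46, adjusted p = 0.0289, edgeR). Of the 31 values, 30 were above 0. The count was 0 and 5 without replicate 2 or 1 of the libraries without proline, 4 without either library with it, and 2 without the filter.

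At T0 and T1 no member was called at 39 nM in edgeR, with 3 and 11 at an unadjusted p under 0.05, although 31 and 29 of 31 values were above 0 (medians 0.58 and 0.76). For those, 0.0885% and 0% of genes tested were higher. At 9.7 and 156 nM no member was called at any time (at T4, 3 and 6 had an unadjusted p under 0.05), where 0.796%, 0.375% and 0.38% of genes tested were higher at 9.7 nM and 0.0885%, 0% and 0% at 156 nM. With the high doses, edgeR and DESeq2 called no small-subunit gene different with and without proline at T0, T1 or T4, where 0, 2 and 5 had an unadjusted p under 0.05 in edgeR. The family medians were 0.04, -0.24 and 0.10, and 0.177%, 0% and 0% of genes tested were higher and 0% lower at each time. Values of single genes ran from -0.87 to 0.74 at T0.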

How the data were processed

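RNA of 120 libraries was measured by 3′ digital gene expression (modified SCRB-Seq with Nextera, per the labels' protocols). The authors deposited raw counts per gene symbol, per the values (whole numbers with differing totals). BWA and mm10 are named in the submitters' processing notes. Their versions, the counting program, and the handling of strand or molecular identifiers were not given in the sources used here. The rule for the 31 genes uses symbols alone, but the family and all lists were chosen with earlier results of these data known.

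Counts were fitted with edgeR 4.0.16 (R 4.3.3): quasi-likelihood tests, TMM, filterByExpr with a minimum count of 10, Benjamini-Hochberg adjustment over all genes tested, threshold 0.05, two-sided. Fits held 36 controls (course), 40 libraries (each time) or 54 (T1 or T4 less T0), in 22 comparisons. Each dose was its own group. SEs are the log2 change over the square root of F. Against the family, library size was the 31-gene sum. Named by rule were the 3 lowest and highest per comparison, those called against the family, and Rps27a, Rps6, Rps3, Rpsa, Rps14 and Rps29; a few genes are not reported here. No pair of 240 replicate pairs was identical. Replicate numbers were not taken to pair libraries. Batches are not in the labels. On simulated counts, 92% of 4-fold and 56% of 2-fold falls were recovered (T4, high doses, 1320 genes), with 1.15% of unchanged genes called. The median estimates of these falls were -2.39 and -1.2 (log2), larger than those put in. For T4 against T0 controls, 74% and 64% were recovered. All libraries were simulated from the control profile with a fixed spread and no shift of Rn45s, so recovery in treated libraries may differ. Alternatives were median-of-ratios scaling, DESeq2 1.42.0, no filter, a replicate block, pooled or single doses, shallow libraries or Rn45s left out, and each library left out. Doses pooled and single doses were chosen after seeing the data.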

Additional observations from a re-analysis of the deposited data

Results flagged for a closer look

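The change from control with high-dose halofuginone was tested between times, and these differences in small-subunit genes passed the threshold (edgeR, adjusted over 1640 genes). At T1 less T0 it was Rps26 alone, at -2.84 (log2). At T4 less T0 the values were -4.09 for Rps28, -3.94 for Rps26, -2.72 for Rps4x and -1.94 for Rps21. For Rps23 the value was -1.72, for Rps27 -1.67, for Rps20 -1.66, for Rps29 -1.5, for Rps9 -1.48, for Rps14 -1.40 and for Rps24 -0.96. At the later time Rps28, Rps26 and Rps4x had no count at 1 or more doses, so that the sizes of these 3 are uncertain.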

How the results depend on the processing

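High-dose counts of lower members kept within 1.5 times under every alternative, and no called result changed direction. Depth limits T4, where members had a median of 12 counts over 6 libraries.

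Without the filter, lower members were 0 at T1 and 4 at T4 in controls, 13 at T0 with middle doses, 1 at T0 and 1 at T1 with middle doses and proline, 0 for T1 less T0 and 4 for T4 less T0. Higher with proline at middle doses were 0 (T1) and 1 (T4). Against the family, calls were 1 for T4 controls, 1 (T0), 2 (T1) and 4 (T4) without and 1, 3 and 4 with proline. DESeq2 and median-of-ratios scaling gave 14 and 14 lower at T1 with middle doses and proline, 0 and 0 for T1 less T0, and 4 and 5 for T4 less T0; DESeq2 gave 0 higher with proline at T1. Doses pooled gave 5, 1 and 7 lower with middle doses and proline, 0 and 8 higher with proline at T1 and T4, 0 for T1 less T0, and 5 and 5 against the family with proline at T1 and T4. Higher with proline at T1 and T4 were 0 and 10 at 39 nM alone, 0 and 0 at 156 nM and 0 and 0 at 9.7 nM. Without libraries under 30000 counts they were 2 and 0, with 0 for T1 less T0. Without 10000 nM, T1 less T0 gave 0, and T1 without proline against the family 3. Scaling to both subunits' sum gave 8 and 9 (T0) and 11 and 14 (T4) against the family without and with proline.

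Replicate numbers were not taken as pairing, since not every correlation of deviations passed 0.1. Same-numbered controls had mean correlations of -0.0027 to 0.14, over 0.1 for numbers 9, 10 and 11, where differently numbered ones had -0.042 to -0.027. Treated libraries had 0.0097, -0.0062 and -0.0046. With a replicate block, middle doses gave 12 (T0) and 15 (T1) lower without proline and 1, 0 and 6 with it, 0 and 1 higher with proline at T1 and T4, and 0 for T1 less T0. Against the family it gave 1, 2 and 4 without and 1, 4 and 5 with proline. At high doses 20 to 29 members were lower. With this block, changes from control within a time rest on controls 1 and 2, since treated libraries carry no other number.

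Leaving out 1 library gave 14 to 23 (T0), 21 to 25 (T1) and 24 to 30 (T4) lower with middle doses, and 1 to 7, 0 to 5 and 7 to 13 with proline. Higher with proline were 0 to 2 at T1 and at T4. For T1 less T0 it gave 0 to 1 and for T4 less T0 8 to 14. Against the family it gave 1 to 4, 4 to 7 and 5 to 9 without and 2 to 4, 4 to 10 and 4 to 8 with proline at T0, T1 and T4.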
